A study of Mus musculus with 6 samples.

Results

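The genes described here are 37 mouse genes of the interferon response, named in a list and looked up by gene symbol among the probes of an Agilent 2-colour expression array. A probe was found for 35 of the 37, and 34 of these passed the filter on dim probes and were tested among 19752 probes. One of the 35, Irf9, was found through its RefSeq accession because the array files call it Isgf3g. Oas1a and Ifi205 had no probe of their own name, and Ifit2 was not well above background in any channel. The RNA came from cells called HACA that carried a short hairpin RNA against Snail (shSnail), against Loxl2 (shLoxl2) or, as the control, against GFP (shGFP). Snail, encoded by Snai1, is a transcriptional repressor of epithelial genes, and Loxl2 encodes a lysyl oxidase-like enzyme. The labels do not say whether a hairpin line was 1 clone or a pool, whether the cells were treated, or whether numbered samples came from separate cultures, so the p-values may measure technical spread only. The shSnail RNA was in the Cy5 channel of 2 arrays. The shLoxl2 RNA was in 4, as a dye-swapped pair for each of 2 numbered samples, and all 6 carried shGFP RNA in the opposite channel.

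Interferons are secreted when a cell senses foreign nucleic acid. They bind receptors whose Jak kinases phosphorylate Stat proteins. A complex that holds Stat2 and Irf9 switches on genes that carry an interferon-stimulated response element, ISRE, while the gamma-activated site, GAS, is bound by Stat dimers. The genes switched on include antiviral effectors, sensors that amplify the response, further Irf transcription factors and the HIN-200 proteins, a family of nuclear and DNA-sensing factors also tied to growth arrest and differentiation.

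The HIN-200 genes Ifi202b, Ifi204 and Ifi203 were lower than in shGFP cells in both lines, by 13.1-fold, 5.42-fold and 1.79-fold in shSnail cells and by 3.17-fold, 4.11-fold and 1.60-fold in shLoxl2 cells. In shLoxl2 cells Irf5, Isg15, Bst2 and Eif2ak2 were higher, by 2.53-fold, 1.93-fold, 1.78-fold and 1.40-fold, and Irf5, Bst2 and Eif2ak2 also differed between the lines. In shSnail cells the only rise that held however the dye effect was treated was that of Ifi35, by 2.25-fold. Most other effectors, including the Ifit, Mx, Oas and guanylate-binding protein genes, had no change in either line that passed however the dye effect was treated.

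The promoters of 5 genes are printed to show what stands near the starts of the genes that changed together: 2 of the genes that fell, Ifi203 and Ifi202b, the neighbouring gene Ifi211, whose probe is described with the family, and 2 that rose in shLoxl2 cells, Isg15 and Bst2. The array files place the probe named Isg15 on chromosome 17, so its rise cannot be firmly assigned to the gene whose window is printed. Each is the RefSeq stretch, build GRCm38.p6, from 250 bases before to 50 bases after the annotated start, read along the gene's strand. Capitals mark matches to the ISRE-type pattern, GAAA and GAAA with any 2 bases between, or, in Ifi202b, which has none, to the GAS-type letters TTCNNNGAA. The windows lie at chr1:173942443-173942742 for Ifi203, chr1:173912997-173913296 for Ifi211, chr1:173982795-173983094 for Ifi202b, chr4:156200769-156201068 for Isg15 and chr8:71537423-71537722 for Bst2, all on the minus strand.
Ifi203: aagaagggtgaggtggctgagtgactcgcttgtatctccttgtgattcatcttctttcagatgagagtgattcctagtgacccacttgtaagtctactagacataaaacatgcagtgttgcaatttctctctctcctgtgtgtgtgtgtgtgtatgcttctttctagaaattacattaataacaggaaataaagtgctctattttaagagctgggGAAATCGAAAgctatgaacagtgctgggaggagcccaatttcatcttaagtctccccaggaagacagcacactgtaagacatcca
Ifi211: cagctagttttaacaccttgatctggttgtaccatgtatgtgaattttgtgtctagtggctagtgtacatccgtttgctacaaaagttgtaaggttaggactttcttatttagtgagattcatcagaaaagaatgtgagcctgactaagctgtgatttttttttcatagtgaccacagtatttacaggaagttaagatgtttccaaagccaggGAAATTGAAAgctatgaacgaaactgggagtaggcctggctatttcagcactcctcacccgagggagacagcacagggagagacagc
Ifi202b: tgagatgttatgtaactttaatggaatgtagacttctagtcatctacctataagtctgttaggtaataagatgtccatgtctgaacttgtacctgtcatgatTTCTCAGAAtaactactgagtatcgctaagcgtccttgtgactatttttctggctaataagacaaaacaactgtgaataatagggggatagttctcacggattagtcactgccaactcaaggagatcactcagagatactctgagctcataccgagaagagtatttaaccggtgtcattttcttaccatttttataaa
Isg15: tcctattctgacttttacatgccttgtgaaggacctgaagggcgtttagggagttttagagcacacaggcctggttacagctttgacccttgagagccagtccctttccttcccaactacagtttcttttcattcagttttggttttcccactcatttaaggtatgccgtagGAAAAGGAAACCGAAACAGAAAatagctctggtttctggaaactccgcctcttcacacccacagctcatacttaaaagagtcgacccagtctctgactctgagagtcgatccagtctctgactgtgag
Bst2: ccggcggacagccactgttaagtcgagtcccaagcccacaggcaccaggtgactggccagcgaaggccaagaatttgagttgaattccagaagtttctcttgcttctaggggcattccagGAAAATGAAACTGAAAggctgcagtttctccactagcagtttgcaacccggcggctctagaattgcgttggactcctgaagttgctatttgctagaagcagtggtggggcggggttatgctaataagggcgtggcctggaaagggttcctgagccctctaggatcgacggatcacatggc

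Both strands were searched. In Isg15 3 overlapping ISRE-type matches began 78, 72 and 66 bases upstream of the start, and in Bst2 2 overlapping ones began 130 and 124 bases upstream, the first of them overlapping a GAS-type match that began 136 bases upstream. The single matches of Ifi203 and Ifi211 began 35 and 37 bases upstream. A further annotated start of Ifi203 had no match of either type in its window. The promoter table held 31 of the 37 genes, and Oas1b, Oas2, Mx1, Mx2, Usp18 and Ifi204 are named only. An ISRE-type match stood in a window of 18 of the 31 genes (58.1%), against 3.99% of all 27025 genes, and a GAS-type match in 11 of the 31 (35.5%), against 9.55% of all. Of the other genes that changed, Eif2ak2 had an ISRE-type match 18 bases downstream of its start and a GAS-type match 178 bases upstream, Ifi35 a GAS-type match 7 bases downstream, and Irf5 neither. Among the members that fell, Ifi203 had an ISRE-type match in 1 of its 2 windows and Ifi202b had none. Ifi204, which fell too, had no window to search. The letters are a description of these windows only.

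Some facts of the arrays bear on every value below. The red channel had between 85.4% and 92.4% of probe spots well above background and the green channel between 55.9% and 74.9%; with 6 arrays, precision is limited by their number. With the sign turned, so that each value is the log2 ratio of silenced over shGFP RNA, the 2 arrays of a shLoxl2 number correlated at only 0.02 and -0.03 over probes. What stayed with the dye when the labels were swapped, called the dye effect, had an SD of 0.46 over probes. It cancels in the shLoxl2 pairs but not in shSnail, so shSnail values are given with this effect removed in full, scaled to its slope on the shSnail arrays (0.45), or not removed, and a shSnail call is said to hold under all 3 only where it does. The Loxl2 probe did not pass in shLoxl2 cells (log2 fold change 0.11, limma adjusted p = 0.59), and Snai1 was not well above background on the shSnail arrays, so the probes do not check the labels. Of the keratinocyte markers 8 of 10 were well above background in every channel, as were 5 of 12 leukocyte markers, 1 of 5 fibroblast markers and none of 5 endothelial ones. All shLoxl2 arrays were scanned on one day and both shSnail arrays on another, so scan day and silenced gene cannot be told apart. In bulk RNA, fewer cells that express a gene and less of its RNA per cell cannot be told apart.

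A gene passed where its limma adjusted p, over all probes tested, was below 0.05. In shSnail cells 7 of the 34 genes passed (20.6%), 4 higher and 3 lower, against 21.4% of all probes (8.81% higher and 12.6% lower). Under all 3 dye treatments 4 passed (11.8%), 1 higher and 3 lower, against 15.2% of all (5.05% higher and 10.2% lower). In shLoxl2 cells 7 passed (20.6%), 4 higher and 3 lower, against 13.8% of all (8.01% higher and 5.82% lower). Between shSnail and shLoxl2 cells 5 passed (14.7%), 1 higher and 4 lower in shSnail, against 12.8% of all (4.24% higher and 8.56% lower). The 1 higher was Oas1g, whose dim probe gives no fold there. Leaving out 1 replicate leaves 1 sample in a line. Calls in each comparison were lost that way, and between the lines none held when either shSnail array was left out. An unadjusted p below 0.05 was reached by 10, 16 and 12 of the 34 genes in shSnail cells, shLoxl2 cells and between the lines. Over all 19752 probes it was reached by 7096, 5522 and 6423. The genes' shares were therefore near those of all probes in the comparisons with shSnail. Their median log2 fold change was -0.12 in shSnail cells (all probes -0.04), 0.10 in shLoxl2 cells (all probes -0.01) and -0.22 for shSnail over shLoxl2 (all probes -0.04). The shSnail median was 0.07 with no dye correction and 0.00 with the scaled one. Between the lines the scaled one gave a median of -0.15 (all probes -0.01). Both silenced lines were read against the same shGFP RNA, so their values are set side by side and are not independent of each other.

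**Figure D1:**
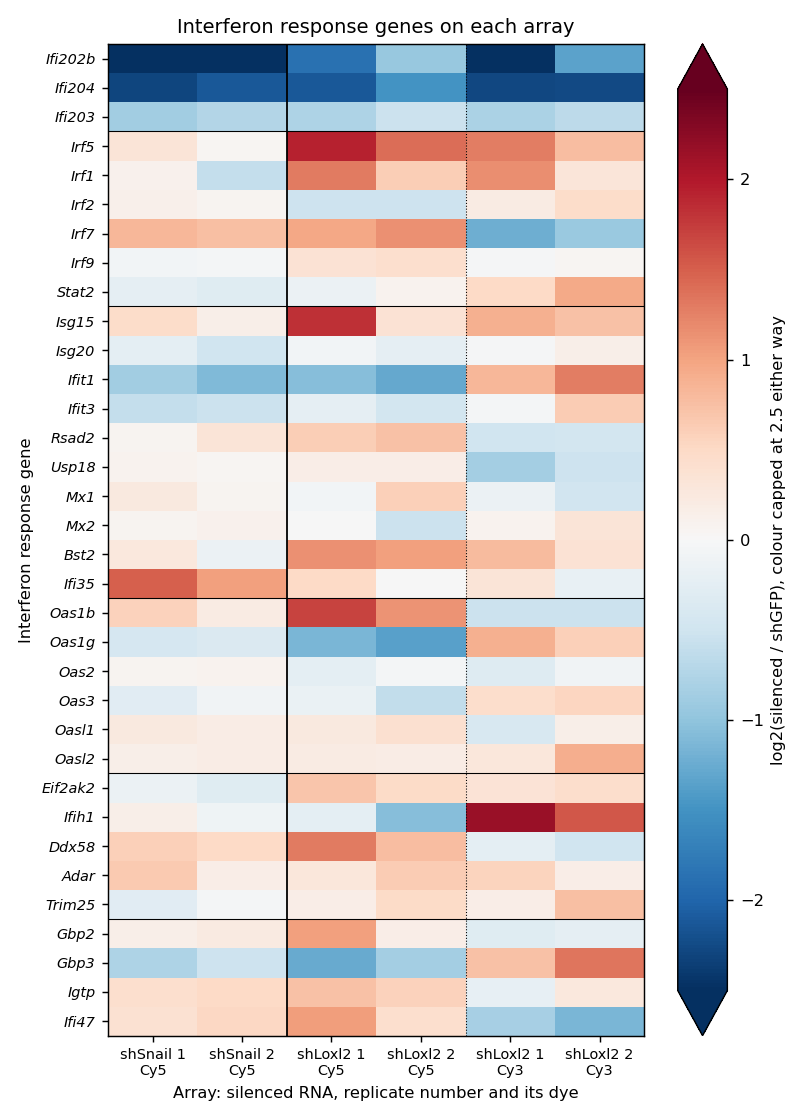
Log2 ratio of silenced over shGFP RNA for the 34 tested genes (down the page, grouped by role) on the 6 arrays (across, with the silenced RNA's dye), red for higher and blue for lower in the silenced cells. Of the 34 genes 7 had the same sign on all 6 arrays, and 14 changed sign with the dye in both shLoxl2 pairs.

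The array picture separates genes that follow the silenced RNA from genes that follow the dye. Only 12 of the 34 had the same sign on all 4 shLoxl2 arrays, and 31 had the same sign on both shSnail arrays, which share an orientation. The genes with the same sign on all 6 were Ifi202b, Ifi203 and Ifi204, which were negative, and Isg15, Irf5, Oasl2 and Adar, which were positive. The dye effect of single genes ran from -1.25 for Ifih1 to 1.06 for Irf7, and 9 of the 34 had one beyond 0.5 either way. A total of 14 genes were well above background in both channels on every array, and no spot of any of the 35 probes was saturated.

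Ifi202b and Ifi204 had the largest changes of the 34 genes in both lines. The HIN-200 genes lie in a cluster on chromosome 1 and code for proteins that share a DNA-binding HIN domain. Ifi202b encodes a HIN-domain protein without a pyrin domain, which binds DNA and holds back several transcription factors. Its probe (chromosome 1, 175799497 to 175800526, mm8) had log2 ratios of -3.60 and -3.30 on the shSnail arrays. On the shLoxl2 arrays the ratios were -1.87 and -0.94 with the silenced RNA in Cy5 and -2.52 and -1.33 with it in Cy3. All 6 were below 0, both shSnail values lay below all 4 shLoxl2 values, and shLoxl2 replicate 1 was lower than replicate 2 in both dyes. The mean intensities before correction were 1674 and 1990 in the shSnail channels, against 13439 and 13311 in the shGFP channels of the same arrays. In the shLoxl2 channels they were 14246 against 20663 and 23360 against 28662 in Cy5, and 5084 against 62295 and 4751 against 41342 in Cy3. The size of the shLoxl2 ratios on single arrays therefore depends much on the normalization. The log2 fold change was -3.72 in shSnail cells (SE 0.33, n = 2, limma adjusted p = 0.00146), and -3.57 and -3.45 with the scaled and with no dye correction. In shLoxl2 cells it was -1.67 (SE 0.25, n = 2, limma adjusted p = 0.0117). The difference between the lines was itself past the threshold, at -2.05 for shSnail over shLoxl2 (SE 0.34, limma adjusted p = 0.0262). With scale normalization between arrays the shSnail value was -4.44 and the difference -2.97, both past the threshold. With the scanner software's log ratios neither the difference nor the shLoxl2 value passed. The call on the difference was also lost when either shSnail array was left out. Some cell type markers were lower in the same lines: 4 of 10 keratinocyte markers in shSnail cells and 3 of 10 in shLoxl2 cells, with 1 higher in each, and 1 of 5 fibroblast markers, Pdgfra, in both, at -1.18 in shSnail cells (limma adjusted p = 0.00443) and -0.82 in shLoxl2 cells (limma adjusted p = 0.0121). Of all probes, 12.6% were lower and 8.81% higher in shSnail cells, and 5.82% were lower and 8.01% higher in shLoxl2 cells. The part of these markers in the HIN-200 values was not tested.

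Ifi204 encodes p204, which has a pyrin and 2 HIN domains, takes part in cytosolic DNA sensing and binds the retinoblastoma protein. Its probe (chromosome 1, 175584248 to 175585881, mm8) had log2 ratios of -2.30 and -2.12 on the shSnail arrays. In shLoxl2 hybridisations they were -2.13 and -1.50 in Cy5 and -2.28 and -2.25 in Cy3. The values of the 2 lines overlapped, and the highest of the 6 was -1.50. The log2 fold change was -2.44 in shSnail cells (SE 0.18, n = 2, limma adjusted p = 0.00127), with -2.31 and -2.21 under the scaled and no dye correction, and -2.04 in shLoxl2 cells (SE 0.13, n = 2, limma adjusted p = 0.00144). The difference between the lines was -0.40 (SE 0.25) and did not pass (limma adjusted p = 0.330). Ifi203 encodes a further nuclear member of the family. Its probe (chromosome 1, 175757152 to 175757211, mm8) had log2 ratios of -0.87 and -0.74 on the shSnail arrays. The shLoxl2 arrays gave -0.76 and -0.53 in Cy5 and -0.78 and -0.65 in Cy3. Its range over the 6 arrays was narrow after normalization, and the values of the lines overlapped. Before correction shLoxl2 replicate 2 in Cy3 read 862 against 619 for shGFP, while on every other array the silenced channel was the dimmer. The log2 fold change was -0.84 in shSnail cells (SE 0.14, n = 2, limma adjusted p = 0.00955) and -0.68 in shLoxl2 cells (SE 0.11, n = 2, limma adjusted p = 0.0161), with a difference of -0.16 between them (SE 0.17, limma adjusted p = 0.563). Without shSnail replicate 1 Ifi203 no longer passed in shSnail cells, and without shLoxl2 replicate 1 it no longer passed in shLoxl2 cells.

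Ifi205, another gene of the cluster, had no probe named for it. A probe that the array files call Mnda (chromosome 1, 175736079 to 175736138, mm8) carries accessions of Ifi211, Ifi205 and Ifi204, so its signal cannot be assigned to 1 of these related genes, and it is called the Ifi211 probe here. Its log2 ratios were -2.15 and -2.17 on the shSnail arrays. On the shLoxl2 arrays they were -1.76 and -1.31 in Cy5 and -1.86 and -1.55 in Cy3. Both shSnail values lay below the shLoxl2 ones, but the difference did not pass (-0.62, SE 0.20, limma adjusted p = 0.107). Its log2 fold change was -2.24 in shSnail cells (SE 0.17, limma adjusted p = 0.00127) and -1.62 in shLoxl2 cells (SE 0.13, limma adjusted p = 0.00238).

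The neighbourhood was examined after these values were seen. Within 1000000 bases of the cluster there were 40 probes in mm8 coordinates, of which 38 were tested, and 4 passed as lower under all 3 dye treatments in shSnail cells and the same number in shLoxl2 cells, where 10.2% and 5.82% of all probes did. They were the Ifi202b, Ifi203, Ifi204 and Ifi211 probes in both, and no tested probe passed as higher. In shSnail cells this share was near that of all probes. The stretch was drawn around the Ifi202b, Ifi203 and Ifi204 probes, so these were in the count by choice. Of the other tested probes only the Ifi211 one passed in this way. Other genes of the same family nearby did not pass: Ifi209 had a log2 fold change of -0.08 in shSnail cells (limma adjusted p = 0.772) and 0.12 in shLoxl2 cells (limma adjusted p = 0.60), with all its channels well above background. Aim2, which encodes the DNA sensor of an inflammasome, stood at -0.12 in shLoxl2 cells (limma adjusted p = 0.669). Its probe was well above background in only 1 of 4 shLoxl2 channels and 2 of 4 shGFP channels of the same arrays. On the shSnail arrays it was not well above background and gives no fold for them. The olfactory receptor genes on either side did not pass in either line, and 1 probe without a gene name was lower in shSnail cells under the full dye correction only (-0.50, limma adjusted p = 0.0482). That probe and those of Olfr16 and Olfr433 were not well above background in any channel of the shSnail arrays. Several of these neighbours were therefore too dim to show a fall. Whether probes of this family share signal was not tested.

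**Figure D2:**
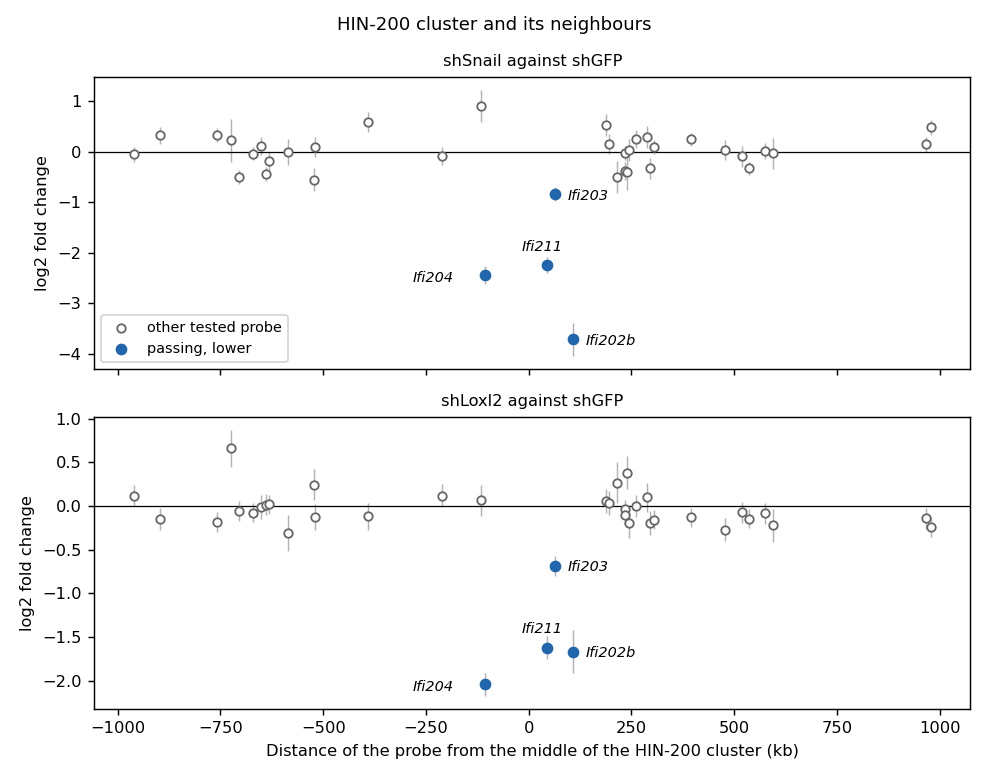
Log2 fold change (bars, SE) of the tested probes within 1 Mb of the HIN-200 cluster against their distance from its middle in kb, for shSnail (top) and shLoxl2 (bottom) over shGFP. The filled points, Ifi202b, Ifi203, Ifi204 and Ifi211, passed as lower in both, between -0.84 and -3.72 in shSnail cells and between -0.68 and -2.04 in shLoxl2 cells.

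Among the transcription factors, 6 were tested. Irf5, which acts downstream of Toll-like receptors and drives inflammatory and interferon genes, was the most strongly raised of all the members in shLoxl2 cells. Its probe (chromosome 6, 29486911 to 29486970, mm8) had log2 ratios of 0.33 and 0.05 on the shSnail arrays. In shLoxl2 hybridisations they were 1.92 and 1.39 in Cy5 and 1.28 and 0.77 in Cy3. All 4 shLoxl2 values lay above both shSnail values. Irf5 had a log2 fold change of -0.13 in shSnail cells (SE 0.21, n = 2, limma adjusted p = 0.706) and rose by 1.34 on the log2 scale in shLoxl2 cells (SE 0.16, n = 2, limma adjusted p = 0.00637). It was lower in shSnail than in shLoxl2 cells, by a log2 difference of -1.46 (SE 0.24, limma adjusted p = 0.0259). Its probe was well above background in 4 of 4 shLoxl2 channels and 2 of 4 shGFP channels of the same arrays. The size of the Irf5 change in shLoxl2 cells moved with the processing, at 1.37-fold with no background subtraction and 5.68-fold with the scanner software's log ratios, both past the threshold, and so did the difference between the lines, at -0.42 and -3.08 on the log2 scale. Irf5 is much expressed by macrophages, and of the 11 leukocyte markers tested Cd68 passed as higher in shLoxl2 cells, by 0.66 on the log2 scale (limma adjusted p = 0.0185), while the other 10 did not pass. Of all probes 8.01% were higher in shLoxl2 cells. The part of other cells in the Irf5 value was not tested.

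Irf1, an early interferon-gamma target that activates many of the other genes, had log2 ratios of 0.10 and -0.60 on the shSnail arrays. The shLoxl2 arrays gave 1.29 and 0.61 in Cy5 and 1.17 and 0.30 in Cy3. The shLoxl2 values were all above the shSnail ones, but shLoxl2 replicate 1 stood well above replicate 2, and Irf1 did not pass in shLoxl2 cells (0.84, SE 0.24, limma adjusted p = 0.0775) or between the lines (-1.20, SE 0.34, limma adjusted p = 0.0786). Irf2, which competes with Irf1 for the same sites, had ratios of 0.13 and 0.07 on the shSnail arrays. On the shLoxl2 arrays its ratios were -0.51 and -0.52 in Cy5 and 0.20 and 0.45 in Cy3, so their sign went with the dye. Its shSnail value was 0.52 with the dye effect removed in full (limma adjusted p = 0.0414), 0.29 with it scaled (limma adjusted p = 0.117) and 0.10 without correction (limma adjusted p = 0.509). The call on Irf2 therefore holds only under the full correction. Irf7, which amplifies interferon production, likewise had a shSnail value of -0.27 in full, 0.31 scaled and 0.79 uncorrected, of which only the last passed (limma adjusted p = 0.00569). Its shGFP channel was not well above background on the shSnail arrays, where the shSnail spots were at least 1.17-fold brighter before dye correction. Stat2 and Irf9, parts of the ISRE-binding complex, passed in neither line, with log2 fold changes of 0.10 and -0.25 in shSnail cells and 0.35 and 0.20 in shLoxl2 cells.

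Among the effectors Isg15 and Bst2 rose in shLoxl2 cells. Isg15 encodes a ubiquitin-like protein that is coupled to other proteins. Its probe had log2 ratios of 0.46 and 0.15 on the shSnail arrays. In shLoxl2 hybridisations they were 1.83 and 0.35 in Cy5 and 0.88 and 0.72 in Cy3. All 6 values were positive, 1 shLoxl2 array stood far above the rest, and the lines overlapped. Isg15 stood at 0.16 in shSnail cells (SE 0.33, n = 2, limma adjusted p = 0.759) and rose by 0.95 on the log2 scale in shLoxl2 cells (SE 0.21, n = 2, limma adjusted p = 0.0366). The lines did not differ past the threshold (-0.78, SE 0.49, limma adjusted p = 0.329), and the shLoxl2 call was lost without shLoxl2 replicate 1, with no background subtraction (1.23-fold, limma adjusted p = 0.0643) and with the scanner software's log ratios. The array files place this probe on chromosome 17 in mm8, while the GRCm38.p6 annotation has Isg15 on chromosome 4, so the value is that of a probe named Isg15. Bst2 encodes tetherin, which holds enveloped virus particles at the cell surface. Its probe (chromosome 8, 74463693 to 74463752, mm8) had log2 ratios of 0.26 and -0.14 on the shSnail arrays. The shLoxl2 arrays gave 1.14 and 1.02 in Cy5 and 0.79 and 0.36 in Cy3. All 4 shLoxl2 values were above both shSnail values. Bst2 stood at -0.19 in shSnail cells (SE 0.19, n = 2, limma adjusted p = 0.520), rose by 0.83 on the log2 scale in shLoxl2 cells (SE 0.14, n = 2, limma adjusted p = 0.0184), and was lower in shSnail than in shLoxl2 cells by a log2 difference of -1.02 (SE 0.20, limma adjusted p = 0.0355). Its shLoxl2 call too was lost without shLoxl2 replicate 1 and with the scanner software's log ratios.

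Ifi35 encodes a leucine zipper protein that partners Nmi. Its probe (chromosome 11, 101274454 to 101274513, mm8) had log2 ratios of 1.49 and 1.02 on the shSnail arrays. On the shLoxl2 arrays they were 0.50 and -0.02 in Cy5 and 0.31 and -0.18 in Cy3. Both shSnail values lay above all 4 shLoxl2 values, which spread around 0. Ifi35 rose by 1.17 on the log2 scale in shSnail cells (SE 0.23, n = 2, limma adjusted p = 0.0150), with 1.22 and 1.26 under the scaled and no dye correction, both past the threshold. In shLoxl2 cells its log2 fold change was 0.15 (SE 0.18, limma adjusted p = 0.619). The difference between the lines was 1.01 (SE 0.26) and did not pass (limma adjusted p = 0.0646). Without shSnail replicate 1 the shSnail call was lost.

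The remaining effectors gave no call that held under all dye treatments. Ifit1 and Ifit3, whose proteins bind viral RNA, had log2 fold changes of -0.06 and -0.03 in shLoxl2 cells, and Ifit1 one of 0.13 in shSnail cells. The Ifit3 probe was not well above background in the shSnail or the shGFP channel of the shSnail arrays and gives no fold, although with no dye correction it would have passed as lower (limma adjusted p = 0.0158). Ifit1 shows how far the dye decides such a value: its ratios were -0.87 and -1.11 on the shSnail arrays. In shLoxl2 hybridisations they were -1.07 and -1.28 in Cy5 and 0.82 and 1.28 in Cy3. With no dye correction Ifit1 would have passed as lower in shSnail cells at -0.99 (limma adjusted p = 0.00310), and with the scaled one at -0.48 (limma adjusted p = 0.0357). Isg20, an exonuclease, Rsad2, which encodes viperin, and Usp18, which removes Isg15 from proteins, passed in no comparison. Nor did Mx1 and Mx2, dynamin-like antiviral GTPases annotated as transcribed pseudogenes in GRCm38.p6. In shSnail cells the log2 fold changes were -0.27 for Isg20, -0.38 for Rsad2 and -0.12 for Mx1. There the Mx2 spots were too dim in both channels and the Usp18 spots in the shGFP channel, so neither gene gives a fold. In shLoxl2 cells the log2 fold changes of all these genes lay between -0.26 and 0.10. The Mx2 probe was well above background in only 1 of 4 shLoxl2 channels and 1 of 4 shGFP channels of those arrays.

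**Figure D3:**
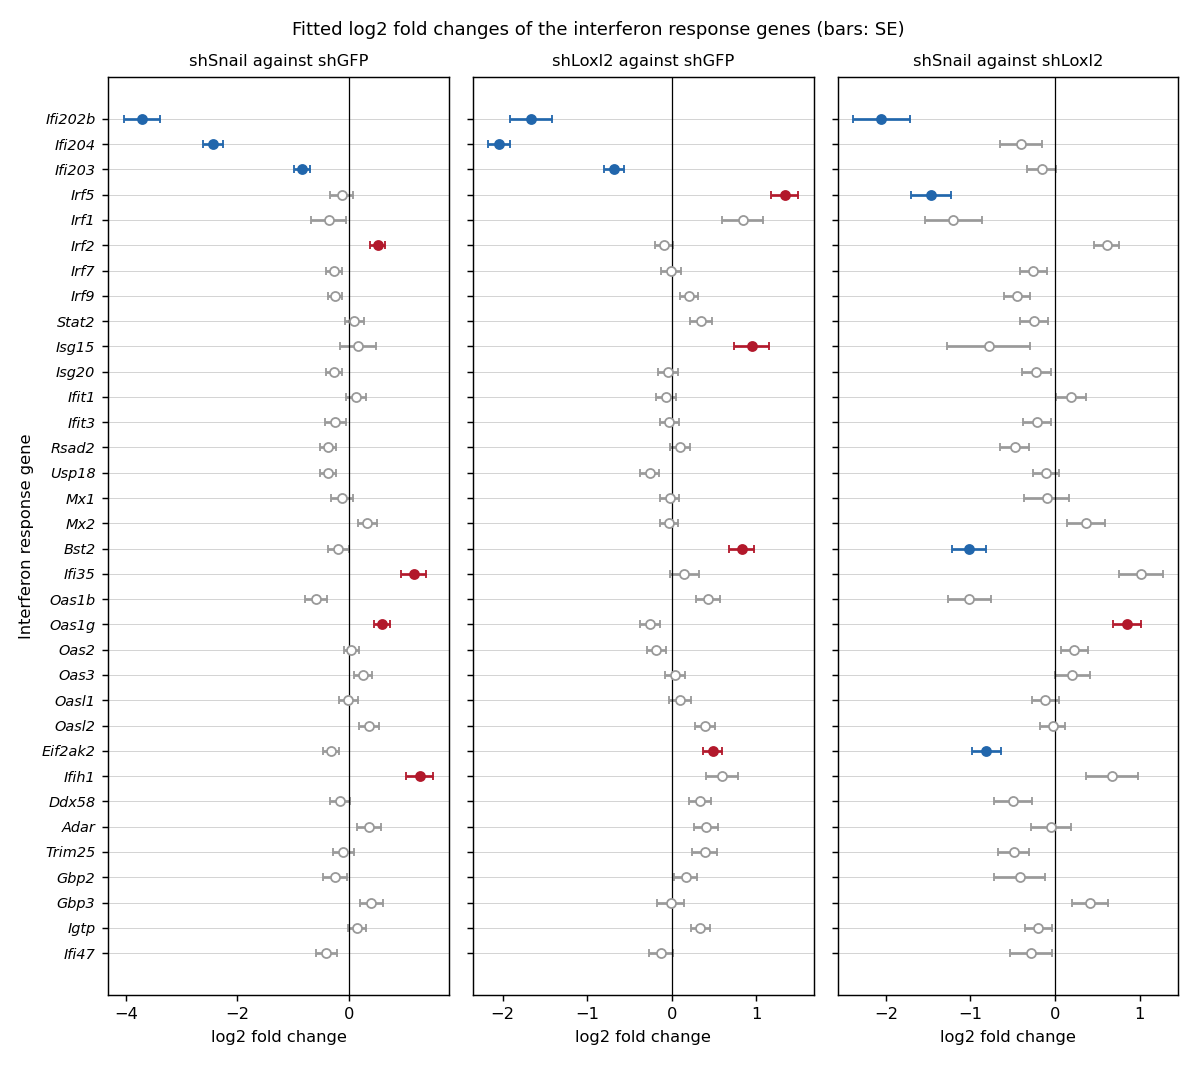
Fitted log2 fold change (bars, SE, n = 2 per line) of the 34 genes in shSnail over shGFP (left, dye effect removed in full), shLoxl2 over shGFP (middle) and shSnail over shLoxl2 (right), with filled red and blue points passing as higher and lower. The HIN-200 genes are the 3 lowest points of the first 2 panels, down to -3.72, and Irf5, Bst2 and Eif2ak2 pass as lower in the third.

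The oligoadenylate synthetases, which make the signal that activates RNase L, were represented by 6 tested probes. None passed in shLoxl2 cells, where their limma log2 fold changes ran from -0.25 to 0.43. There 2 of the 6 had an unadjusted p below 0.05, as had 5522 of all 19752 probes. Oas1g had ratios of -0.42 and -0.36 on the shSnail arrays. The shLoxl2 arrays gave -1.13 and -1.36 in Cy5 and 0.89 and 0.60 in Cy3. Its shSnail value was 0.60 with the dye effect removed in full (limma adjusted p = 0.0319), 0.06 with it scaled and -0.39 uncorrected (limma adjusted p = 0.0520), and it passed between the lines at 0.86 (limma adjusted p = 0.0354). On the shSnail arrays both channels of the Oas1g probe were too dim to be well above background, as was every silenced channel of the shLoxl2 arrays. No fold was therefore measured for shSnail or between the lines, and the call between the lines rests on dim spots. Oas1b, annotated as a transcribed pseudogene in GRCm38.p6, had a difference of -1.01 between the lines that did not pass (SE 0.26, limma adjusted p = 0.0630).

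Of the sensors and their partners, Eif2ak2, the double-stranded RNA-activated kinase PKR that halts translation, passed in shLoxl2 cells. Its probe (chromosome 17, 78759586 to 78759645, mm8) had ratios of -0.15 and -0.31 on the shSnail arrays. On the shLoxl2 arrays they were 0.69 and 0.47 in Cy5 and 0.34 and 0.44 in Cy3. Both shSnail values were negative and all 4 shLoxl2 values positive. Eif2ak2 stood at -0.33 in shSnail cells (SE 0.14, n = 2, limma adjusted p = 0.153), rose by 0.49 on the log2 scale in shLoxl2 cells (SE 0.11, n = 2, limma adjusted p = 0.0393), and was lower in shSnail than in shLoxl2 cells by a log2 difference of -0.81 (SE 0.17, limma adjusted p = 0.0419). Its shLoxl2 call was lost when any 1 replicate was left out, of either line. It was also lost with the shLoxl2 pairs fitted alone, with the scanner software's log ratios and with scale normalization between arrays. Ifih1, the RNA sensor MDA5, had ratios of 0.15 and -0.11 on the shSnail arrays. In shLoxl2 hybridisations they were -0.23 and -1.07 in Cy5 and 2.15 and 1.56 in Cy3, the widest split by dye among the members. Its shSnail value was 1.28 in full (limma adjusted p = 0.0145), 0.59 scaled and 0.02 uncorrected, and only the first passed. Its shGFP channel was not well above background on either shSnail array, so no fold was measured there. Ddx58, the RNA sensor RIG-I, and Trim25, the ubiquitin ligase that activates it, had log2 fold changes of -0.16 and -0.10 in shSnail cells and 0.34 and 0.39 in shLoxl2 cells, none past the threshold. With no dye correction Ddx58 passed as higher in shSnail cells, at 0.54 (limma adjusted p = 0.0288). Ddx58 was well above background in the shSnail channel of both arrays and in the shGFP channel of neither, where the shSnail spots were at least 1.45-fold brighter before dye correction. Adar, which edits double-stranded RNA, was positive on every array, between 0.16 and 0.66, and did not pass in shSnail cells (0.36, limma adjusted p = 0.280) or shLoxl2 cells (0.41, limma adjusted p = 0.140).

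The interferon-inducible GTPases Gbp2, Gbp3, Igtp and Ifi47, which act at the vacuoles of intracellular pathogens and are mainly induced by interferon-gamma, passed in no comparison by limma, with 1 of the 4, Igtp in shLoxl2 cells, at an unadjusted p below 0.05 (5522 of all 19752 probes there). Their log2 fold changes ran from -0.41 to 0.41 in shSnail cells and from -0.13 to 0.34 in shLoxl2 cells. Gbp3 changed side with the dye treatment in shSnail cells, at 0.41 in full and -0.64 uncorrected (limma adjusted p = 0.0286), and its shGFP spots were at least 1.54-fold brighter there than the shSnail spots, which were not well above background. Igtp passed as higher in shSnail cells only uncorrected, at 0.45 (limma adjusted p = 0.0271).

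**Figure D4:**
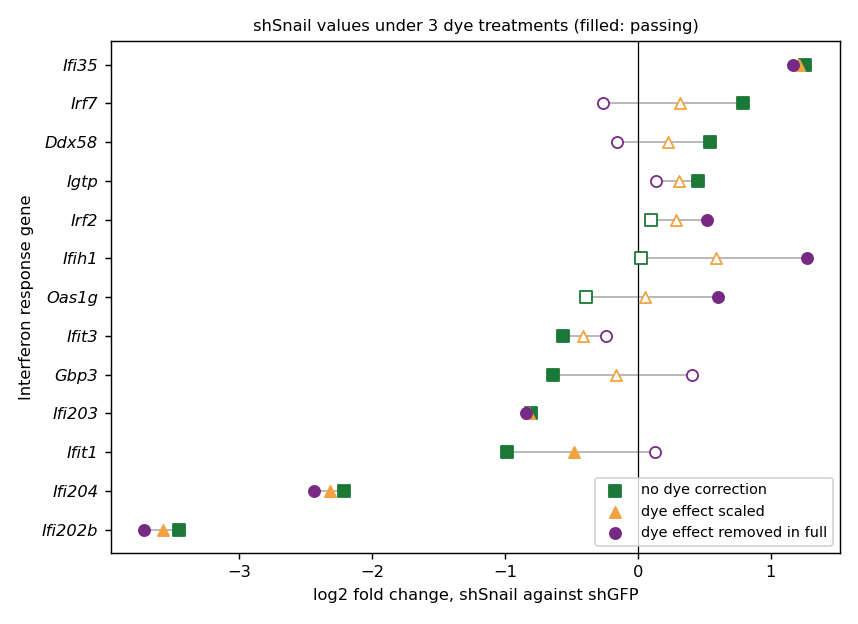
Log2 fold change in shSnail over shGFP cells for the 13 genes that passed under at least 1 of 3 treatments of the dye effect, with filled symbols where the gene passed. Ifi202b, Ifi204, Ifi203 and Ifi35 passed in 1 direction under all 3, and Ifit1, Gbp3, Oas1g, Ddx58 and Irf7 lie on both sides of 0.

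Genes upstream of the response were read from lists drawn up beside the 37. Beside the counts below, 5.05% of all probes were higher and 10.2% lower under all 3 dye treatments in shSnail cells, and 8.01% were higher and 5.82% lower in shLoxl2 cells. An unadjusted p below 0.05, in either direction, was reached by 7096 of all 19752 probes in shSnail cells and 5522 in shLoxl2 cells. Of 12 tested interferons and receptor chains 1 passed in shSnail cells, the type I receptor chain Ifnar1, with a log2 fold change of -0.56 (limma adjusted p = 0.0381) that held under all 3 dye treatments. In shLoxl2 cells limma gave 0 calls on this list and 2 at an unadjusted p below 0.05, and Ifnar1 stood at 0.42 (limma adjusted p = 0.0657). Ifnar1 was lower in shSnail than in shLoxl2 cells by a log2 difference of -0.97 (limma adjusted p = 0.0239). The Ifnb1 probe failed the filter. Of 18 nucleic acid sensors and adaptors none passed as higher in shSnail cells by limma (4 at an unadjusted p below 0.05) and 2 passed as lower, Tank (-1.05, limma adjusted p = 0.00949) and Azi2 (-0.67, limma adjusted p = 0.0167), both adaptors of the kinase Tbk1. In shLoxl2 cells 5 of the 18 passed as higher and 1 as lower, against 8.01% and 5.82% of all probes. Among them were Tlr4, the lipopolysaccharide receptor, at 1.25 (limma adjusted p = 0.00473), the adaptor Traf3 at 0.73 (limma adjusted p = 0.0103), the double-stranded RNA receptor Tlr3 at 0.58 (limma adjusted p = 0.0200) and Tank at -0.64 (limma adjusted p = 0.0342). The Tlr3 probe was well above background in 3 of 4 shLoxl2 channels but only 1 of 4 shGFP channels of the same arrays, so its value rests on dim spots.

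Of 18 genes of signalling and its inhibitors, 5 passed as lower in shSnail cells, all under the 3 dye treatments (10.2% of all probes), and none as higher by limma (1 at an unadjusted p below 0.05). They included Socs3, a feedback inhibitor of Jak kinases, at -2.20 (limma adjusted p = 0.00127), the kinase Jak2 at -0.91 (limma adjusted p = 0.00589) and the phosphatase Ptpn1 at -0.89 (limma adjusted p = 0.00960). In shLoxl2 cells 3 passed as higher and 3 as lower (8.01% and 5.82% of all probes). Socs1, the main inhibitor of interferon-gamma signalling, stood at 1.26 (limma adjusted p = 0.00333), Stat5a at 0.77 (limma adjusted p = 0.00948) and the phosphatase Ptpn2 at -0.82 (limma adjusted p = 0.0113). Between the lines 7 of the 18 passed, all lower in shSnail (8.56% of all probes were lower there), among them Socs3 (-2.12, limma adjusted p = 0.0126) and Socs1 (-1.15, limma adjusted p = 0.0230).

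Of 52 other interferon-induced genes, 3 passed as higher and 3 as lower in shSnail cells (8.81% and 12.6% of all probes), or 2 each way under all 3 dye treatments (5.05% and 10.2%). In shLoxl2 cells 7 passed as higher and 4 as lower (8.01% and 5.82% of all probes). Both counts of lower genes include the Ifi211 probe described above. Tor3a, an ATPase of the endoplasmic reticulum, was higher in both lines, by 0.81 on the log2 scale in shSnail cells (limma adjusted p = 0.00864) and 0.98 in shLoxl2 cells (limma adjusted p = 0.00541). Ifi27l2a, which the array files call Ifi27, and Daxx, which encodes a histone chaperone, rose in shLoxl2 cells by 0.92 (limma adjusted p = 0.00901) and 0.91 (limma adjusted p = 0.00763). Daxx was also lower in shSnail than in shLoxl2 cells. The Ifi27l2a probe was well above background in 3 of 4 shLoxl2 channels and 2 of 4 shGFP channels of the same arrays. Its shGFP channel was not well above background on the shSnail arrays, so its call between the lines, also lower in shSnail, rests on dim spots. Samhd1, which breaks down deoxynucleotides, had a log2 fold change of -0.67 in shSnail cells (limma adjusted p = 0.0218). The probe of the chemokine Cxcl10 was not well above background on the shSnail arrays and gives no fold for them. The median of this list was -0.04 in shSnail cells and 0.03 in shLoxl2 cells, beside -0.04 and -0.01 for all probes.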

How the data were processed

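The authors deposited, for each spot, the intensity of both channels and a log10 ratio. The software was Agilent Feature Extraction: the file headers name version 9.5.1.1, while version 6.1.1 is given per the submitters' processing notes. The authors' value table holds the log10 ratios of Cy5 over Cy3, rounded, with no further centring. Both its shSnail columns match the scanner file of shSnail replicate 1 at 100% of spots within 0.006, and replicate 2 at 8.78%, so it served as an alternative with 1 shSnail array. Its column medians ran from 0.0401 to 0.103. Ratio directions come from the labelled dyes.

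Mean intensities were corrected by normexp (offset 50, local median background) and loess-normalized in limma 3.58.1 (R 4.3.3), giving weight 0 to outlier spots and to the 736 control spots. The 20868 probes were reduced to 19752 by requiring, on 2 or more arrays, a channel well above background, 33 of them lacking a value on some array and none of these a member. Each member had 1 probe. The 2 arrays of a shLoxl2 number were averaged as a technical dye swap. The shGFP RNA counts as 1 control sample, so its own spread is in no test. In shSnail cells the dye effect was taken from the shLoxl2 pairs, and shSnail over shLoxl2 used the 4 Cy5 arrays. The latter cancels the dye effect only as far as it is equal on all 4, as the full correction also assumes. With the averaged shLoxl2 pairs set against shSnail values with the scaled dye effect, Irf5, Ifi202b, Eif2ak2 and Bst2 still passed as lower. Oas1g no longer passed, and Ifi35 passed as higher. Each fit against shGFP held the values of both lines under 1 shared spread. Its SE and p therefore draw on the disagreement within both lines, and n = 2 counts the samples of the named line. With the full dye correction the shSnail fit also holds the spread of the dye effect between the pairs. Tests were lmFit and eBayes with Benjamini-Hochberg adjustment over all probes, checked on simulated data. Values on every array are given for genes passing in at least 1 of the 3 comparisons, and, for Irf1 and Ifit1, chosen after their values were seen. From each further list up to 4 genes by smallest p are named, and Ifi209 and the shLoxl2 value of Ifnar1 were added after their values were seen. Some genes of these lists are counted but not reported here. The members and lists were chosen with earlier results of these data known. Promoters come from RefSeq (GRCm38.p6). A bound ("at least") sets the bright channel's mean against the lowest signal well above background.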

Additional observations from a re-analysis of the deposited data

How the results depend on the processing

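Of 13 alternatives with a test, Ifi204 passed as lower in 12 in each line, Ifi202b in 12 in shSnail and 11 in shLoxl2 cells, and Ifi203 in 11 in shSnail and 10 in shLoxl2 cells. The authors' value table leaves 1 shSnail array, so its tests say nothing of single members. The members' median log2 fold change with it was -0.10 in shSnail cells, 0.21 in shLoxl2 cells and -0.43 between the lines. For all probes the medians were -0.26, -0.04 and -0.27. The scanner software's own log ratios gave 4 members in shLoxl2 cells in place of 7, of which 2 (Irf5 and Ifi204) were among the 7 and 2 (Igtp and Oas1g) were not. Over all probes those ratios gave 419 higher and 355 lower, in place of 1582 and 1149. Leaving out 1 replicate gave 2 to 5 members in shSnail cells (lowest without shSnail replicate 1), 3 to 8 in shLoxl2 cells (lowest without shLoxl2 replicate 1) and 0 to 10 between the lines. The 0 came without either shSnail array, where 44 and 38 probes of all passed as lower and 7 and 6 members had an unadjusted p below 0.05. With the replicate number as a block 8 members passed between the lines in place of 5. Over all probes the block gave 873 higher and 1847 lower, in place of 837 and 1690. The numbers share only a number: same-numbered Cy5 arrays deviated together at r = 0.21 over probes, and no block applies to a ratio against the common shGFP RNA.

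With no dye correction 16 of the 34 members changed sign in shSnail cells, and with the scaled one 9. Among these, with a call under 1 of the 2 treatments, were Ifit1 (-0.99), Oas1g (-0.39), Irf7 (0.79), Ddx58 (0.54) and Gbp3 (-0.64) with no correction and Ifit1 (-0.48) with the scaled one. Igtp passed on the other side with the scanner software's log ratios (-1.42). The cause was not tested. Of 1470 fold changes of members under the alternatives, 71 lost a call, 43 gained one and 7 changed sign with a call on at least 1 side. Slide or scan day as a block was not run, since each slide held 1 array and each scan day 1 line. Averaging probes changes nothing with 1 probe a gene. Normexp with the software's background was chosen after seeing the data. Depth is limited most in the green channel: 20 of the 34 members were not well above background in both channels everywhere.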
